A study of Mus musculus with 100 samples.

Results

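The 36 genes described here mark macrophages and other myeloid cells in fat. They were chosen by name, by mapping Ensembl transcripts to gene symbols, out of 32484 genes with a transcript in the deposited tables. They form 8 groups: general macrophage and myeloid receptors and enzymes, complement C1q subunits, adaptors with an immunoreceptor activation motif (ITAM), resident-type markers, alternative activation products, lipid-associated markers, monocyte chemokine receptors, and the alarmins S100a8 and S100a9. The study compared mouse fat labelled wild type (WT) or knockout (KO) for Gps2, which encodes part of the NCoR and SMRT corepressor machinery. Every sample, WT or KO, carries the same strain label, Adipoq-Cre-Gps2flox/flox, in which the adiponectin promoter drives Cre in adipocytes, and the genotype stands in the titles alone. The samples fall into 5 tables. CD is intra-abdominal fat at 19 weeks on chow (3 WT, 3 KO). HFD is intra-abdominal fat at 11 weeks on a high fat diet, named for 4 weeks of it (4 WT, 4 KO). Epi is intra-abdominal fat (3 WT, 3 KO) and Adipo is intra-abdominal adipocytes (3 WT, 2 KO), both at 19 weeks and named for 12 weeks of high fat diet. BA is inguinal fat at 8 weeks from a beta-adrenergic experiment (4 WT, 4 KO). Nothing in the labels ties a replicate to its own mouse, so the spread behind each p-value may be technical.

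Fat holds macrophages between its adipocytes. Resident macrophages carry scavenger and uptake receptors such as Mrc1 (CD206), Cd163, Folr2 and Timd4, while the macrophages that gather around dying adipocytes in obesity take up lipid and express Trem2, Gpnmb, Spp1, Lgals3, Cd9 and Itgax (CD11c). Monocytes enter by the chemokine receptor Ccr2, and macrophages live on the growth factors Csf1 and Il34, which share the receptor Csf1r.

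Values are transcript reads divided by a size factor of the library, from 29444602 to 63456837 recovered reads per sample, and each table has its own scale. Gps2 itself was not lower in KO samples of any table (log2 differences of 0.01 to 0.15, adjusted p-values of 0.847 to 0.983). The labels do not name the deleted exons, so reads over the whole transcript check little, and WT and KO below mean the labels. Several samples stood apart by mean log2 level of a marker list. In CD, the epididymis list reached 6.13 in KO 1 and almost as much in KO 2, against at most 2.79 elsewhere, and the B cell list 7.75 in WT 1, against at most 4.73. The adipocyte genes Adipoq and Fabp4 were low in CD WT 2. Adipoq read 19422 there (46233 to 60260 in the other CD samples) and Fabp4 81033 (206466 to 323002). In Epi, the epididymis list reached 11.57 in KO 2 and 9.91 in KO 3, against at most 2.27. In Adipo, the endothelial list was 11.43 and 10.41 in KO samples and 8.15, 7.47 and 8.54 in WT samples. CD KO 1 and KO 2 were far more alike than the other CD pairs of 1 group (a chi-square of their reads over genes, divided by its degrees of freedom, was 6.76 for them and 186 to 993 for the others), though less alike than libraries of 1 replicate (1.03 to 1.15). No label says whether they are separate mice, and the CD errors and p-values below count them as 2 samples; with their mean as 1 sample, 0 members were called and the members' median log2 difference was -0.43. In bulk RNA, fewer cells of a type and less RNA per cell cannot be told apart.

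Scaled for transcript length and depth (reads per kilobase of transcript and per 1e6 reads, RPKM), Retnla, a secreted resistin-like protein, and the lysozyme Lyz2 were the highest members in WT whole fat. In Epi WT samples Retnla stood at 787 ± 225 (SD, n = 3), Lyz2 at 518 ± 287 and the lectin Lgals3, galectin-3, at 210 ± 181. The C1q chains followed, C1qb at 175 ± 89.2, C1qa at 149 ± 47.2 and C1qc at 120 ± 42.4, and neighbours in this order lay within each other's spread. Timd4 at 1.05 ± 0.311 and the fractalkine receptor Cx3cr1 at 0.639 ± 0.303 were the lowest. Retnla and Lyz2 also led in CD (488 ± 242 and 370 ± 185), HFD (801 ± 262 and 287 ± 99.6) and BA (228 ± 74.7 and 174 ± 41.2), whereas Lgals3 led in Adipo at 186 ± 128.

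Between the labels, 1 member passed in 1 table. In HFD, limma called 1 of 35 tested members at an adjusted p under 0.05, against 3.45% of 14069 genes (1.01% higher and 2.45% lower in KO). In Adipo it called 0 of 33, against 0.632% of 14248 genes (0.540% higher, 0.0912% lower), and in BA 0 of 31, against 0.0322% of 12418. In CD it called 0 of 36 members and 0% of 15617 genes, and in Epi 0 of 36 and 0% of 17685. At an unadjusted p under 0.05 there were 10 members in HFD, 3 in Adipo, 7 in BA, 1 in CD and 4 in Epi, against 20.8%, 24.2%, 9.04%, 9.64% and 9.19% of the genes. On recovered reads, edgeR called 0 members in each of the 5 tables, against 3.81% of the genes in HFD, 1.15% in Adipo, 0.0242% in BA and 0% in CD and Epi. DESeq2 called 6 members in HFD, 2 in Adipo, 0 in BA, 1 in CD and 2 in Epi, against 10.5%, 12.6%, 2.17%, 6.08% and 3.03%.

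As a group the members leaned in different directions. The median log2 difference, KO minus WT, was 0.30 in HFD with 27 of 35 members higher, against -0.09 over all genes, and 0.30 in BA with 27 of 31 higher, against 0.01. It was -0.49 in CD with 7 of 36 higher, against 0.11 over all genes, and -0.22 in Epi with 9 of 36 higher, against -0.03. In Adipo it was 0.40 with 24 of 33 higher, against -0.04. Single samples weighed on every table: the median was 0.12 in HFD without WT 3 (20 of 35 higher) and 0.46 without WT 1 (28 of 34 higher), and in BA 0.20 without KO 4 (25 of 30 higher) and 0.47 without KO 3 (26 of 31 higher). It was -0.09 in CD without WT 1 (12 of 33 higher), 0.11 in Epi without WT 3 (24 of 36 higher) and 1.62 in Adipo without WT 3 (27 of 31 higher). With edgeR and DESeq2 the Adipo median was -0.23 and -0.25 (12 of 33 higher).

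**Figure D1:**
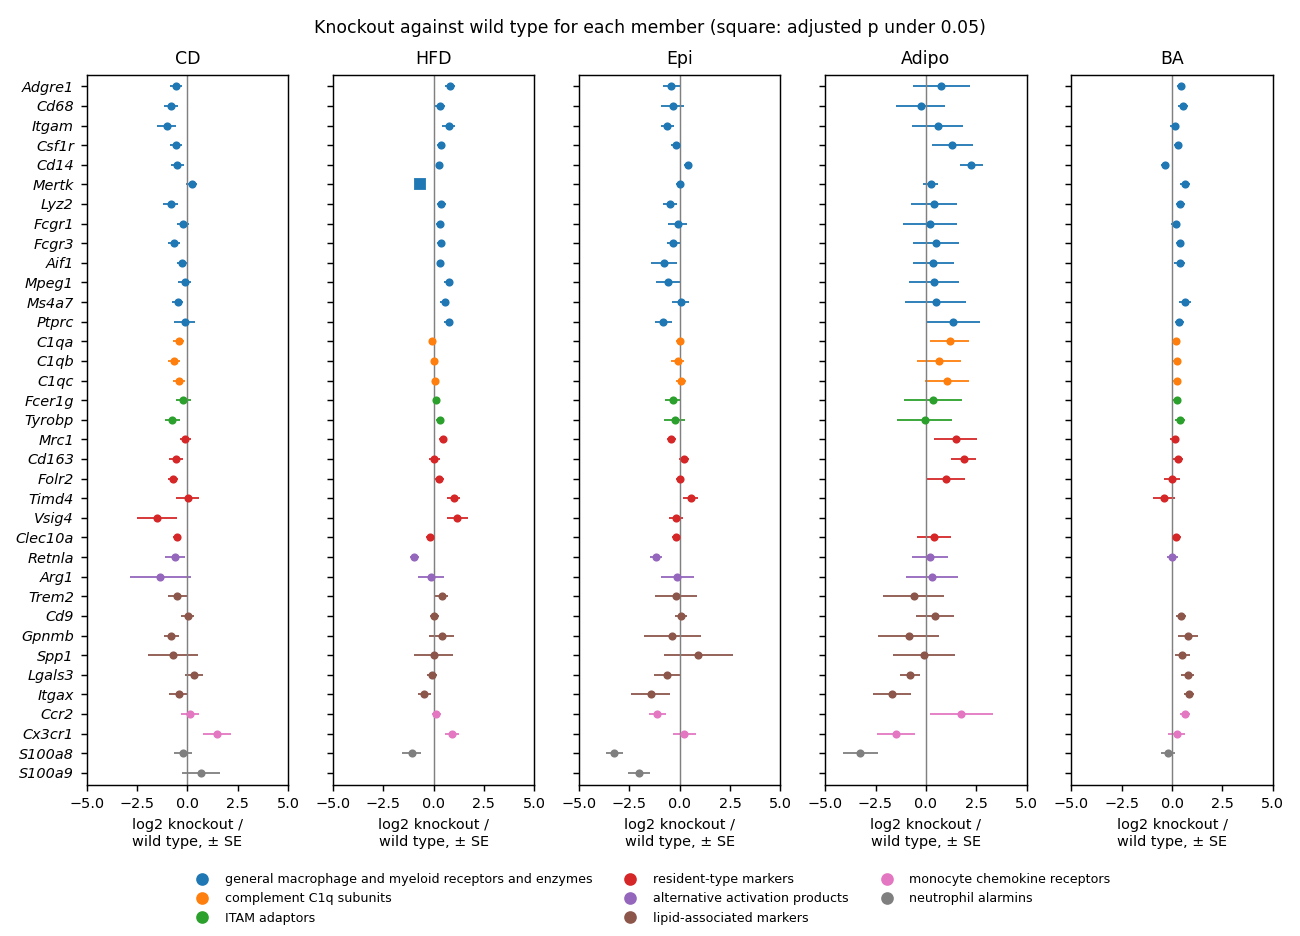
Log2 difference between knockout and wild type with its standard error for each member (rows, by group) in the 5 tables (panels); a square marks an adjusted p under 0.05 in limma. Mertk in HFD is the only square, 27 members lie right of 0 in HFD and in BA, and 29 lie left of it in CD.

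One sample of a table often held most of the highest values. CD WT 1 was the highest of 6 samples for 30 of 36 members, Epi WT 3 the highest of 6 for 25 of 36, and Adipo WT 3 the highest of 5 for 30 of 33. In HFD, WT 1 was the highest of 8 samples for 16 of 35 members and WT 3 the lowest for 24. The HFD KO samples were close to one another in mean log2 level over the members (8.12, 8.13, 8.14 and 8.17), inside the range of the WT samples (8.47, 7.81, 7.38 and 8.02).

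Of the 13 general macrophage genes, 12 were higher in HFD KO samples (median 0.36) and 1, Mertk, was called. Adgre1, the F4/80 receptor, read 541, 319, 198 and 295 in WT and 543, 565, 556 and 549 in KO. The groups did not overlap, though WT 1 lay just under the lowest KO sample, and the difference of 0.80 ± 0.25 (log2, SE) had an adjusted p of 0.113 in limma. DESeq2 called it (0.78, adjusted p = 0.0469). Without WT 1 the difference was 1.06 (adjusted p = 0.0073) and 8 members were called, against 8.50% of the genes: Adgre1, Cd68, Itgam, Csf1r, Mpeg1, Ptprc and Mrc1 higher, Mertk lower. WT 1 also had the highest epithelial list (5.58, against at most 4.08), and the part of that in the result was not tested.

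Markers of some other cell types leaned the same way in HFD. Of the T and NK cell genes 7 of 7 tested were higher (median 0.62; list level 2.80, 2.89, 3.40 and 3.68 in WT and 4.29, 3.90, 4.04 and 3.86 in KO), and Cd4, the helper T cell co-receptor, which macrophages can also carry, was called (1.49 ± 0.32, adjusted p = 0.038). Of the B cell genes 8 of 8 were higher (median 0.89; 3.49, 2.58, 2.94 and 3.76 in WT and 5.83, 3.27, 3.67 and 3.66 in KO), of the mesothelial genes 6 of 6 (0.70; 8.82, 7.52, 7.38 and 8.88 in WT against 9.87, 7.90, 8.72 and 9.01 in KO) and of the stromal progenitor genes 7 of 8 (0.48; 11.16, 10.55, 10.35 and 10.58 in WT against 11.29, 10.49, 11.12 and 11.10 in KO), with 0 called in these 3 lists. These medians exceed that of the general macrophage genes, and their part in it was not tested. Not every list leaned so. Endothelial genes were lower in 7 of 8 (median -0.12), and adipocyte genes higher in 5 of 10 (median 0.01).

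Among the other general genes, Cd68, a lysosomal glycoprotein, read 714, 368, 259 and 334 in WT and 406, 575, 489 and 471 in KO in HFD. Csf1r, the receptor for Csf1 and Il34, read 2356, 1393, 1063 and 1488 in WT and 1885, 1906, 2023 and 1963 in KO. In both, WT 1 was the highest of the 8 samples and the remaining WT samples lay below every KO sample. The pore-forming Mpeg1 read 693, 369, 314 and 527 in WT and 889.7, 644, 769.7 and 762 in KO (0.75 ± 0.23, adjusted p = 0.111), and the leukocyte phosphatase Ptprc (CD45) read 218, 179.9, 118 and 150.5 in WT and 391, 198, 259 and 291 in KO (0.76 ± 0.23, adjusted p = 0.112). Both overlapped through WT 1 alone, and DESeq2 called both (0.78, adjusted p = 0.0185, and 0.87, adjusted p = 0.0166). Itgam (CD11b) differed by 0.75 ± 0.34 (adjusted p = 0.249), but 73.7% of its transcript overlaps the gene model Gm49368, so its reads are uncertain.

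In CD, 1 of these 13 genes was higher and 12 were lower (median -0.51), with 0 called. Adgre1 read 493, 242 and 267 in WT and 207, 187 and 264 in KO (-0.55 ± 0.31), Cd68 629.7, 268 and 329 against 182, 205 and 275 (-0.81 ± 0.35) and Csf1r 2053, 978 and 1445 against 893, 895 and 1147 (-0.55 ± 0.29). WT 1 was the highest sample for each, and the groups overlapped. Mast cell genes stood further apart: 5 of 6 tested were lower in KO without overlap, against 713 of 15617 genes. The mast cell median was -2.41, and the list level 6.42, 6.08 and 6.09 in WT and 3.65, 4.24 and 4.87 in KO. The protease Tpsb2 read 251, 203 and 214 in WT and 35.9, 50.8 and 54.5 in KO (-2.23 ± 0.24, adjusted p = 0.496), while the receptor Kit was higher. Mesothelial genes were lower in 6 of 6 (median -0.75; 8.43, 8.23 and 6.43 in WT and 7.33, 7.39 and 5.66 in KO), dendritic cell genes in 11 of 11 (-0.31; 8.33, 7.37 and 7.95 in WT against 7.30, 7.38 and 7.95 in KO) and B cell genes in 10 of 10 (-1.44). Other lists leaned higher in KO: endothelial genes in 8 of 8 (median 0.29), adipocyte genes in 9 of 10 (0.47) and T and NK cell genes in 8 of 10 (0.43). None of these genes was called, and their part in the macrophage values was not tested.

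In Epi, 2 of the 13 general genes were higher and 11 lower (median -0.35), with 0 called, and the median ran from -0.61 without WT 2 to 0.08 without WT 3. T and NK cell genes were lower in 9 of 9 tested, 3 of them without overlap, against 1616 of 17685 genes. Their median was -0.71, and the list level 5.44, 5.57 and 5.86 in WT and 4.62, 4.96 and 4.26 in KO. Dendritic cell genes were lower in 10 of 11 (median -0.48, list level 8.96, 9.31 and 9.93 in WT and 8.77, 9.33 and 8.82 in KO). In both lists 0 genes were called, and their part was not tested. Adipocyte genes were higher in 8 of 10 (median 0.20) and endothelial genes in 6 of 8 (median 0.12). Cd8a, the killer T cell co-receptor, was at 0 in KO 1.

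Adgre1 read 2115, 2213 and 5994 in WT and 3247, 2127 and 1743 in KO in Epi, Cd68 2315, 1803 and 7123 against 4145, 1967 and 1759 and Csf1r 5947, 6450 and 11177 against 7055, 6682 and 6145. WT 3 was the highest and KO 1 the next highest sample for all 3 genes. Cd14, the lipopolysaccharide co-receptor, was the general gene whose Epi groups stood apart with KO higher, at 596, 504 and 771 in WT and 878, 777 and 774 in KO (0.40 ± 0.19, adjusted p = 0.568). In BA, 11 of 12 general genes were higher (median 0.39), Cd14 being the exception at 186, 193, 127 and 113 in WT and 134, 105, 105 and 125 in KO. BA Adgre1 read 228, 212, 237 and 348 in WT and 404, 364, 259 and 333 in KO (0.42 ± 0.18, adjusted p = 0.549) and Cd68 262, 184, 242 and 166 against 399, 246, 219.9 and 406 (0.54 ± 0.23, adjusted p = 0.534), both overlapping. Csf1r read 913, 492, 765 and 679.7 in WT and 949, 684, 763 and 1096 in KO (0.30 ± 0.21).

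Mertk, the receptor tyrosine kinase with which macrophages take up dying cells tagged by Gas6 or Pros1, was the member that passed. In HFD it read 694, 679, 499 and 602 in WT (mean 618 ± 89.3 SD, n = 4) and 421, 328, 373 and 452 in KO (394 ± 54.5, n = 4). Every KO value lay below every WT value, and Mertk fell by 0.65 ± 0.14 on the log2 scale (SE, adjusted p = 0.0354 in limma). Over 19 alternatives the difference ran from -0.75 to -0.56 and the adjusted p from 0.00868 to 0.112, under 0.05 in 7 of them. The gene lies at chr2:128698956-128802894 (GRCm38, plus strand), and the transcript read here has 19 exons. Unlike most members, Mertk was not lower in WT adipocyte samples than in Epi. With WT 3 left out of both it stood at 108% of its Epi RPKM, against 3.85% for Adgre1 and 3.35% for Csf1r. Which cells its HFD values came from was not tested.

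In no other table did Mertk pass the test. Mertk read 659.8, 373 and 788 in WT and 738, 664 and 615 in KO in CD (0.21 ± 0.29, adjusted p = 0.802). It read 1775, 1753 and 1383 in WT and 1494, 1500 and 1913 in KO in Epi (-0.002 ± 0.16, adjusted p = 0.998), lowest in WT 3, where most members were highest. In BA it read 188, 221, 137 and 150 in WT and 162, 262, 356 and 321 in KO (0.63 ± 0.25, adjusted p = 0.48). The adipocyte samples read 1800, 1517 and 814 in WT and 1313 and 1782 in KO (0.23 ± 0.36). An interaction term for HFD minus CD gave -0.86 ± 0.31 (adjusted p = 0.205) and for Epi minus HFD 0.65 ± 0.22 (adjusted p = 0.183), so the difference between tables did not pass. Of its ligands in HFD, Gas6 read 4147, 1819, 1818 and 3580 in WT and 4829, 4184, 3653 and 4186 in KO (0.66 ± 0.27, adjusted p = 0.205) and Pros1 888, 806, 681 and 1130 against 647, 570.3, 683 and 710.2 (-0.40 ± 0.15, adjusted p = 0.168).

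**Figure D2:**
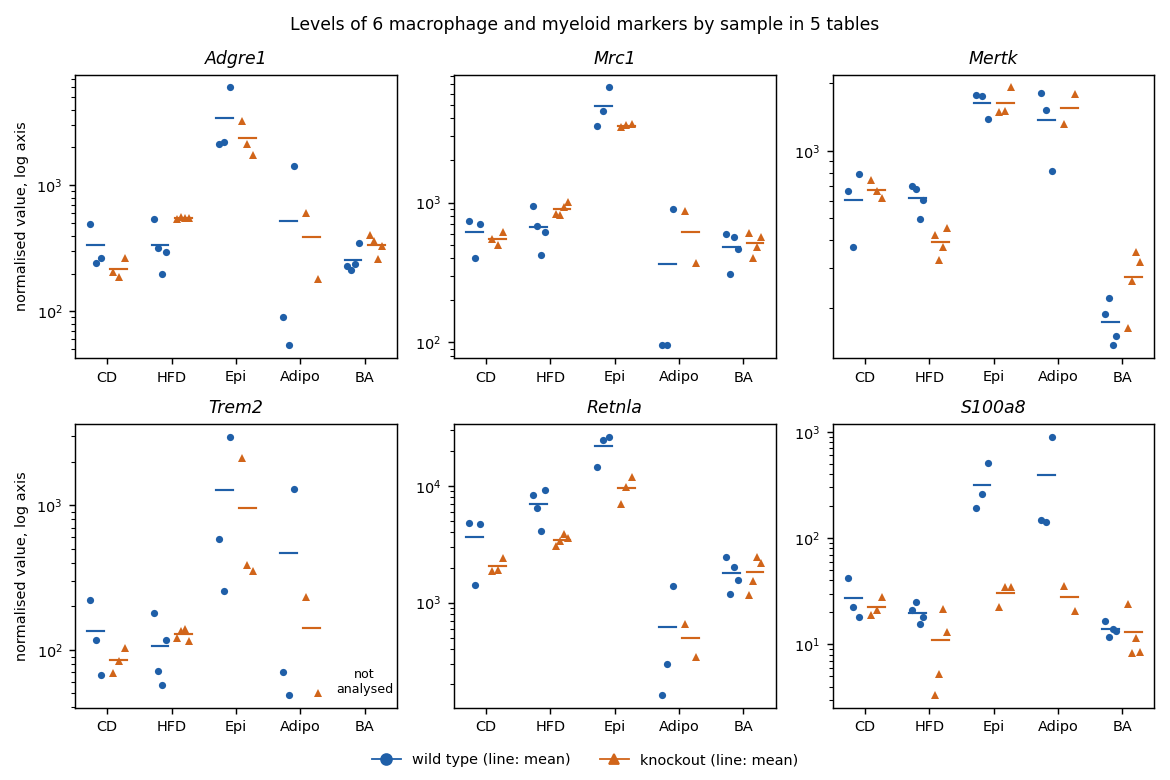
Normalised values (log axis) of Adgre1, Mrc1, Mertk, Trem2, Retnla and S100a8 in each wild type and knockout sample of the 5 tables, with a line at each group mean; values compare within a table only. Knockout samples lie wholly below wild type for Mertk in HFD, Retnla in HFD and Epi, and S100a8 in Epi and Adipo.

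The 3 C1q chains, which form the recognition part of the first complement component and are made in tissue largely by macrophages, overlapped between the labels in all 5 tables. In HFD C1qa read 2987, 2084, 2021 and 2956 in WT and 2139, 2497, 2459 and 2377 in KO (-0.06 ± 0.15), and in Epi 6179, 5741 and 9510 in WT and 7730, 6458 and 7112 in KO (0.02 ± 0.21). In CD it read 2677, 1329 and 1693 in WT and 1283, 1261 and 1531 in KO (-0.43 ± 0.27), with WT 1 again the highest, and C1qb 2614, 1230 and 1711 in WT and 1037, 1053 and 1246 in KO (-0.67 ± 0.29, adjusted p = 0.521). In BA C1qa read 1712, 1263, 1487 and 1091 in WT and 1680, 1434, 1211 and 2024 in KO (0.19 ± 0.19).

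Tyrobp (DAP12) and Fcer1g are adaptors that pass on signals from Trem2 and from Fc receptors. Tyrobp read 739, 422, 378 and 596 in WT and 618, 702, 617 and 626 in KO in HFD (0.31 ± 0.19, adjusted p = 0.374) and 819, 357 and 492 in WT and 261, 258 and 461 in KO in CD (-0.74 ± 0.38, adjusted p = 0.541). In Epi it read 1729, 1618 and 5352 in WT and 3388, 1741 and 1545 in KO (-0.24 ± 0.52), with WT 3 and KO 1 high as for Cd68. In BA it read 349, 377, 337 and 197 in WT and 537, 367, 273 and 474 in KO (0.39 ± 0.25). Fcer1g read 489, 352, 340.3 and 535 in WT and 442, 467, 440.2 and 455 in KO in HFD (0.10 ± 0.15), and overlapped in each table as Tyrobp did.

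Of the 6 resident-type markers, 5 were higher in HFD KO samples (median 0.38) and 5 lower in CD KO samples (median -0.54), with 0 called in either. The HFD median was 0.18 without WT 3 and 0.58 without WT 1, and the CD median -0.31 without WT 1. The mannose receptor Mrc1 read 951, 677, 424 and 612 in WT and 834, 819, 934 and 1006 in KO in HFD (0.48 ± 0.21, adjusted p = 0.226), and the haemoglobin scavenger receptor Cd163 851, 519, 336 and 433 in WT and 406, 505, 538 and 646 in KO (0.04 ± 0.26). Timd4, a phosphatidylserine receptor, read 50.4, 37.3, 22.6 and 51.7 in WT and 128, 69.9, 62.01 and 67.3 in KO (1.00 ± 0.31, adjusted p = 0.113). Its groups did not overlap, KO 1 stood well above the other KO samples, and DESeq2 called it. Of 35 HFD members 4 had groups that did not overlap, against 14.0% of the genes: Adgre1 and Timd4 higher (as were 568 of all genes) and Mertk and Retnla lower (as were 1407).

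In CD, Folr2, a folate receptor of resident macrophages, read 436, 226 and 358 in WT and 183, 207 and 212 in KO (-0.71 ± 0.26, adjusted p = 0.514), and the lectin Clec10a 794, 444 and 643 in WT and 420, 428 and 436 in KO (-0.51 ± 0.22, adjusted p = 0.526). Neither overlapped, and DESeq2 called Folr2 (-0.86, adjusted p = 0.0388). Folr2 reads are uncertain, since 74.6% of the transcript overlaps the gene model Gm10602. With Cx3cr1, these were the 3 of 36 CD members whose groups stood apart, against 17.0% of the genes (1937 genes higher, 713 lower).

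Mrc1 read 732, 402 and 698 in WT and 547, 493 and 616 in KO in CD (-0.10 ± 0.26) and 3502, 4513 and 6669 in WT and 3448, 3562 and 3649 in KO in Epi (-0.41 ± 0.23). Cd163 read 686, 324 and 475 in WT and 380.5, 384 and 218 in KO in CD (-0.57 ± 0.35) and 1592, 2865 and 1935 in WT and 1886, 2761 and 2598 in KO in Epi (0.21 ± 0.25). All 4 pairs of groups overlapped. In Epi the resident-type median was -0.08, with 2 of 6 higher, and Timd4 read 79.8, 148 and 91.6 in WT and 105, 171 and 190.4 in KO (0.55 ± 0.37, adjusted p = 0.674). In BA 3 of 5 were higher (median 0.12), Mrc1 reading 597, 309.5, 565 and 462 in WT and 609, 403, 479.7 and 569 in KO and Cd163 412, 167, 343 and 317 against 287, 305, 469 and 384. Timd4 was lower in BA, at 64.3, 10.2, 48.6 and 25.03 in WT and 25.1, 11.2, 24.2 and 37.95 in KO (-0.40 ± 0.54, adjusted p = 0.904), and overlapped. Of 12 other resident macrophage genes, 8 were higher in HFD (median 0.13), 1 in CD (-0.58), 4 in Epi (-0.06) and 2 in BA (-0.15), with 0 called in any of these tables.

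Retnla (FIZZ1), which macrophages make under interleukin-4, went against most other members in HFD. It read 8396, 6466, 4078 and 9298 in WT (7060 ± 2312 SD, n = 4) and 3065, 3357, 3870 and 3601 in KO (3473 ± 343, n = 4). The groups did not overlap, and the KO samples were much more alike than the WT samples. The difference of -0.96 ± 0.23 had an adjusted p of 0.0562 in limma and 0.000604 in DESeq2. In Epi it read 14500, 24928 and 26200 in WT and 6937, 9886 and 11850 in KO, again without overlap (-1.18 ± 0.29, adjusted p = 0.384 in limma and 0.00518 in DESeq2). The difference ran from -1.20 to -0.80 over 19 alternatives in HFD and from -1.61 to -0.97 over 17 in Epi.

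In CD Retnla read 4814, 1415 and 4736 in WT and 1875, 1924 and 2406 in KO (-0.63 ± 0.50, adjusted p = 0.664), with WT 2 below every KO sample, and in BA 2451, 1197, 2028 and 1556 in WT and 1153, 1540, 2448 and 2188 in KO (0.01 ± 0.28, adjusted p = 0.997). Both overlapped. Reads shared with close relatives of Retnla could be misassigned. The arginase Arg1, the other alternative activation product, read 20.6, 104, 6.79 and 21.6 in WT and 27.8, 20.9, 16.97 and 23.6 in KO in HFD and 253, 8.57 and 3.65 in WT and 5.92, 9.06 and 9.002 in KO in CD, with 1 WT sample far above the rest in each table.

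Promoters of Retnla, S100a8, C1qc and Spp1 are shown because all 4 hold the same letters. Groups of Retnla and S100a8 stood apart in 2 tables each. So did those of Cd14 and Cx3cr1, which are not among the 4. The motif GAGGAAGT, on either strand (ACTTCCTC), was searched in the 250 bases before the start in RefSeq promoters (GRCm38.p6); it is of the kind bound by PU.1, an ETS factor of myeloid cells, and contains the ETS core GGAA. Of the 36 members, 29 had a promoter entry and 4 of those held the motif, or 13.8%, against 2.79% of 27025 genes and 2.44% of 32851 promoters. Capitals mark the match, each sequence runs 5′ to 3′ on the strand of its gene, and the match begins 198 bases before the start in Retnla, 172 in S100a8, 195 in C1qc and 113 in Spp1. A match describes letters only and is not a bound site.
Retnla, chr16:48842381-48842448, plus strand: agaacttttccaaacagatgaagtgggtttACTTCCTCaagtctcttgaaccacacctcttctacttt
S100a8, chr3:90668869-90668936, plus strand: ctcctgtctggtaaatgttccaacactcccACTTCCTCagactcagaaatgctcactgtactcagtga
C1qc, chr4:136893072-136893139, minus strand: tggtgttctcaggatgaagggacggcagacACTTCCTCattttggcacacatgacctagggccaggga
Spp1, chr5:104434968-104435035, plus strand: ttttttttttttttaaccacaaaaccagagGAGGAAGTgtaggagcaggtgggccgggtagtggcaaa
The 4 genes did not share a direction in Epi, at -1.18 ± 0.29 for Retnla, -3.25 ± 0.43 for S100a8, 0.08 ± 0.25 for C1qc and 0.92 ± 1.71 for Spp1.

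The lipid-associated markers varied more within a label than between labels in Epi, where 2 of 6 were higher (median -0.28, from -1.08 without KO 1 to 0.51 without WT 3). The lipid receptor Trem2 read 583, 254 and 2962 in WT and 2125, 386 and 351 in KO (-0.20 ± 1.04), and Gpnmb, a glycoprotein of lipid-laden macrophages, 2372, 654 and 17779 in WT and 12412, 1376 and 759 in KO (-0.36 ± 1.43). The integrin chain Itgax read 859.7, 530.1 and 3612 in WT and 1625, 212 and 239 in KO (-1.44 ± 0.98). WT 3 and KO 1 were the high samples of their labels for these 3 genes. Lgals3 showed the same at 7605, 6420 and 26747 in WT and 13987, 5297 and 4807 in KO. Spp1, osteopontin, read 89.04, 27.3 and 623 in WT and 420.2, 1233 and 19.7 in KO, with KO 2 above both. Cd9 read 2298, 2137 and 3096 in WT and 2756, 3797 and 1729 in KO. KO 2 was its highest sample.

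In mean level, the resident-type markers did not show this split. WT 3 and KO 1 were the high samples of their labels for Folr2 and Clec10a, but not for Mrc1, Cd163, Timd4 and Vsig4. The mean log2 level of the resident-type list was 9.47, 9.95 and 9.96 in Epi WT and 9.82, 9.77 and 9.77 in KO. That of the lipid-associated markers was 10.12, 9.16 and 12.18 in WT and 11.54, 10.21 and 8.88 in KO. The lipid-associated minus the resident-type level was thus 2.22 in WT 3 and 1.72 in KO 1, against -0.89 to 0.65 in the other 4 samples. A list of 15 other lipid-associated macrophage genes was also highest in WT 3 (12.37) and KO 1 (11.81). Samples of the same number were the high ones in Adipo, where Trem2 read 70.8, 49.03 and 1289 in WT and 234 and 50.5 in KO and Gpnmb 518, 249 and 8671 against 1006 and 324. No label says whether Epi and Adipo samples of 1 number share a mouse.

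**Figure D3:**
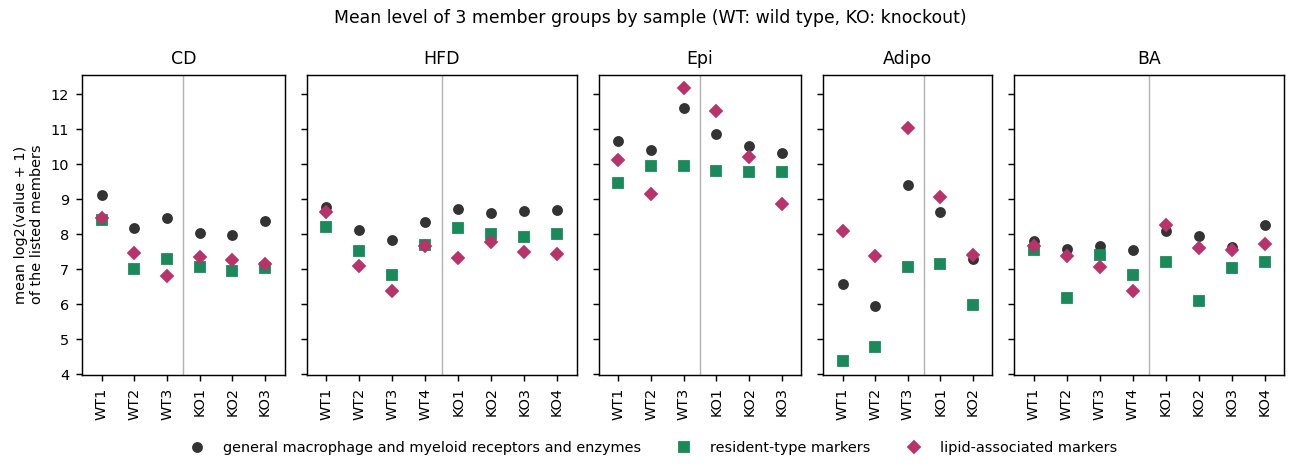
Mean log2(value + 1) of the general, resident-type and lipid-associated members in every sample of the 5 tables, wild type and knockout side by side. In Epi the lipid-associated markers reach 12.18 in WT 3 and 11.54 in KO 1 while the resident-type markers stay between 9.47 and 9.96, and in Adipo WT 3 has the highest general and lipid-associated levels.

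In HFD and CD these markers overlapped between the labels without such a pair. In HFD Trem2 read 180.5, 71.4, 57.5 and 116 in WT and 120.2, 136, 141 and 116 in KO (0.40 ± 0.31), Gpnmb 527, 96.4, 51.4 and 215 against 169, 395, 170.1 and 153 (0.40 ± 0.63) and Itgax 159.8, 121, 47.3 and 129 against 88.9, 61.4, 82.8 and 74.4 (-0.45 ± 0.33). WT 1 was highest and WT 3 lowest for all 3 genes. Without WT 3, limma called 3 members, Mertk (-0.75), Retnla (-1.20) and Itgax (-0.83, adjusted p = 0.0486), against 2.18% of the genes, and all 3 were lower. In CD Trem2 read 220.1, 116 and 66.7 in WT and 69.2, 84.5 and 103 in KO (-0.50 ± 0.46) and Gpnmb 475, 442 and 228 against 242, 265 and 140.1 (-0.80 ± 0.38). Itgax read 182, 98.96 and 69.9 in WT and 64.4, 58.1 and 136 in KO (-0.43 ± 0.48) and Lgals3 2656, 894 and 1389 against 2151, 2216 and 1375 (0.33 ± 0.43), and no group of these 4 genes stood apart. Spp1 was low in both tables, at 55.5, 5.49 and 1.79 in WT and 8.49, 4.78 and 3.34 in KO in CD and 113, 6.03, 1.83 and 8.93 in WT and 6.95, 23.9, 9.67 and 10.3 in KO in HFD, where WT 1 held most of the reads each time.

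In BA the 5 lipid-associated markers tested were all higher in KO samples (median 0.77, or 0.44 without WT 4 and 0.45 without KO 1), with 0 called. Itgax read 30.03, 29.7, 28.4 and 17.9 in WT and 58.9, 48.3, 31.2 and 52.5 in KO (0.82 ± 0.25, adjusted p = 0.305) and was the 1 of 31 members whose groups did not overlap, against 5.48% of the genes (405 genes higher, 276 lower). Lgals3 read 2663, 1517, 1583 and 744 in WT and 2360, 2333, 2560 and 2824 in KO (0.77 ± 0.31, adjusted p = 0.494), its groups overlapping through WT 1. Gpnmb read 204, 124, 140.4 and 95.1 in WT and 764, 131, 130 and 239 in KO (0.80 ± 0.50), with KO 1 far above the others, and Spp1 63.8, 67.9, 30.4 and 20.9 in WT and 82.7, 57.5, 63.6 and 38.96 in KO (0.51 ± 0.38). All 9 dendritic cell genes tested in BA were also higher (median 0.65, mean log2 level of the list 6.94, 6.92, 6.57 and 6.51 in WT and 7.28, 7.32, 6.82 and 7.53 in KO). So were 7 of 7 T and NK cell genes (median 0.60) and 10 of 10 adipocyte genes (0.31). Mast cell genes were lower in 5 of 5 (median -0.20). The part of these lists in the Itgax value was not tested. Trem2 and Mpeg1 were not analysed here in BA.

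The monocyte receptor Ccr2 read 998, 1405 and 3025 in WT and 703, 611 and 974 in KO in Epi, without overlap (-1.11 ± 0.41, adjusted p = 0.506). It read 260.3, 244, 189 and 221 in WT and 344, 154, 258 and 287 in KO in HFD (0.14 ± 0.23) and 126, 153, 105 and 102 in WT and 128, 233, 145 and 273 in KO in BA (0.62 ± 0.25), overlapping in both. In CD it read 262, 131 and 326 in WT and 189, 197 and 406 in KO (0.14 ± 0.45), with KO 3 the highest sample. Cx3cr1 read 57.9, 37.96 and 9.80 in WT and 65.01, 67.1 and 119 in KO in CD (1.48 ± 0.68, adjusted p = 0.529), without overlap. Of 7 other monocyte genes tested in HFD, 2 rose and 0 fell by the test, against 1.01% and 2.45% of all genes. Chil3, a chitinase-like protein of myeloid cells, read 5.47, 5.55, 10.7 and 5.35 in WT and 31.3, 37.97, 33.5 and 24.3 in KO (2.11 ± 0.29, adjusted p = 0.00668), and Ly6c2, a surface protein of classical monocytes, 15.7, 12.1, 19.3 and 11.3 in WT and 36.8, 30.8, 28.7 and 25.6 in KO (1.03 ± 0.23, adjusted p = 0.0445).

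Of 7 ligands of the member receptors tested in HFD, 1 was called, against 3.45% of the genes. Il34 read 556, 435, 544 and 786 in WT and 280.4, 358, 297 and 299 in KO and fell by 0.88 ± 0.17 (adjusted p = 0.0247), while the other Csf1r ligand, Csf1, read 658, 537, 436 and 562 in WT and 681, 661, 576 and 669 in KO (0.25 ± 0.13, adjusted p = 0.288). In Epi Il34 read 1099, 889 and 876 in WT and 762, 2302 and 1650 in KO, highest in the KO samples that carried epididymis genes.

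S100a8 and S100a9, which pair as calprotectin and abound in neutrophils, gave the largest differences among the members in Epi. S100a8 read 192, 259 and 504 in WT (318 ± 164 SD, n = 3) and 22.5, 34.6 and 34.3 in KO (30.5 ± 6.87, n = 3), and S100a9 96.7, 67.1 and 48.5 in WT and 22.5, 20.6 and 8.58 in KO. Neither overlapped. The differences were -3.25 ± 0.43 (adjusted p = 0.286 in limma) and -2.03 ± 0.56 (adjusted p = 0.423), and DESeq2 called S100a8 (-3.36, adjusted p = 2.15e-07). Of 36 Epi members 6 had groups that did not overlap, against 16.5% of the genes: Cd14 higher (as were 1294 of all genes), and both alarmins, Itgam, Ccr2 and Retnla lower (as were 1616).

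Other neutrophil genes did not share a direction in the same samples. Of a list of 10, 3 had enough signal to test, and 0 were called. The protease genes Mmp9 at 96.7, 199.6 and 99.5 in WT and 182, 271 and 274 in KO (0.93 ± 0.36, adjusted p = 0.52) and Elane at 44.5, 29.8 and 12.3 in WT and 105, 36.2 and 32.6 in KO (0.94 ± 0.69, adjusted p = 0.698) were higher in KO, and the cytokine receptor Csf3r at 90.6, 120.1 and 211 in WT and 82.2, 104 and 78.9 in KO (-0.58 ± 0.38, adjusted p = 0.665) was lower. Among the 7 too low to test, Ly6g, which defines neutrophils, read 0, 0 and 0.881 in WT and 0, 0 and 0 in KO, and Retnlg, chosen after its values were seen, 12.3, 12.4 and 12.3 in WT and 0, 6.58 and 0 in KO. The mean log2 level of all 10 was 3.69, 3.17 and 3.25 in WT and 3.00, 3.03 and 2.71 in KO. Cell cycle genes were lower in KO as well, 8 of 8 without overlap, against 1616 of 17685 genes. Their list level was 9.67, 9.02 and 9.56 in WT and 8.38, 8.28 and 7.89 in KO. The part of the neutrophil or the cell cycle list in the alarmin values was not tested. In HFD S100a8 read 20.96, 24.9, 15.6 and 18.2 in WT and 3.36, 5.32, 21.7 and 13.2 in KO (-1.09 ± 0.49, adjusted p = 0.245), in CD 41.8, 22.5 and 18.3 in WT and 18.8, 20.9 and 27.6 in KO and in BA 16.7, 11.7, 13.9 and 13.4 in WT and 24.1, 8.22, 11.5 and 8.47 in KO, overlapping in each. S100a9 read 62.6, 34.5 and 3.996 in WT and 36.04, 34.8 and 35.3 in KO in CD (0.70 ± 0.94), with WT 3 the lowest.

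In Adipo most members were low in WT 1 and WT 2 and highest in WT 3. Adgre1 read 91.02, 54.2 and 1429 in WT and 600 and 182 in KO (0.77 ± 1.43), Csf1r 202, 159 and 1609 against 1342 and 640.4 (1.31 ± 1.03) and C1qa 149, 154 and 1224 against 980.3 and 491 (1.18 ± 0.97). For these 3 genes both KO samples lay between WT 3 and the other WT samples. Mrc1 read 95.5, 95.97 and 900.5 in WT and 866 and 369 in KO (1.48 ± 1.06) in the same order, while Itgax read 361, 206 and 1615 in WT and 279 and 82.5 in KO (-1.69 ± 0.95), with KO 2 the lowest of the 5. Cd68 read 297, 182 and 2761 in WT and 814 and 245 in KO and Tyrobp 116, 86.6 and 1607 against 499.8 and 116, with KO 2 close to the 2 low WT samples.

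For Spp1, Ccr2, Retnla and Lgals3 WT 3 was again the highest adipocyte sample. Spp1 read 16.9, 9.39 and 272 in WT and 74.6 and 15.1 in KO (-0.09 ± 1.52), Ccr2 2.25, 2.09 and 64.5 against 63.4 and 12.4 (1.76 ± 1.55) and Retnla 163, 297 and 1393 against 653 and 344 (0.22 ± 0.89). Lgals3 read 6101, 6874 and 18222 in WT and 5956 and 4741 in KO (-0.78 ± 0.49, adjusted p = 0.36), high in all 5 samples. With all 5 samples in the fit, none of these differences passed.

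In this design of 3 against 2, 5 of 33 members had groups that did not overlap, against 48.0% of the genes: Cd14 and Cd163 higher (as were 2954 of all genes), Lgals3, Cx3cr1 and S100a8 lower (as were 3884). Cd14 read 75.3, 63.6 and 211 in WT and 653 and 361 in KO (2.26 ± 0.58, adjusted p = 0.111 in limma, 0.00385 in DESeq2) and Cd163 64.05, 70.9 and 244 in WT and 444 and 327 in KO (1.87 ± 0.61, adjusted p = 0.154). Without WT 3, 6 members were called, against 5.08% of the genes: Csf1r (2.37), Cd14 (2.79), C1qa (2.18), Mrc1 (2.55) and Cd163 (2.48) higher and S100a8 (-2.39) lower. All 8 endothelial genes were higher in KO without overlap (median 2.87), and so were all 6 mesothelial genes (median 2.16); their part in these values was not tested. The median was 1.23 over 4 resident-type and -0.69 over 6 lipid-associated markers. With 1 sample left out, the first ran from 0.58 (without KO 1) to 2.21 (without WT 3) and the second turned, from -1.44 (without KO 1) to 0.77 (without WT 3). Over all 6 markers of each group, the lipid-associated minus the resident-type level was 3.71, 2.62 and 3.95 in WT and 1.91 and 1.43 in KO. That level counts Timd4 (1.12 to 8.18) and Vsig4 (0 to 16.4), which were too low to be tested.

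S100a8 read 148, 143 and 892 in WT and 35.8 and 20.4 in KO in Adipo (-3.25 ± 0.87, adjusted p = 0.116 in limma, 0.000284 in DESeq2), without overlap. Its partner S100a9 read 1.12, 0 and 6.14 in WT and 3.07 and 4.43 in KO, too low to be tested. In RPKM S100a8 stood at 7.38, 7.32 and 47.6 in the WT adipocyte samples and S100a9 at 0.0531, 0 and 0.311.

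Most members were far lower in adipocyte samples than in whole fat, by RPKM in WT samples of Adipo and Epi. With WT 3 left out of both, the median of 36 members stood at 4.54% of its Epi level (14.3% with it), and 25 members were under 10%. Mertk at 108%, Lgals3 at 106% and S100a8 at 74.6% were the 3 at or above 50%, followed by Itgax at 46.4%. With WT 3 kept in both, S100a8 stood at 146%, Mertk at 96.7% and Lgals3 at 88.6%. Gpnmb at 53% and Itgax at 50.7% then also lay above 50%. Mertk stood at 10.1, 8.77 and 4.91 RPKM in the adipocyte samples, lowest in WT 3, and at 7.13 to 9.13 in Epi. For comparison, the adipocyte gene Adipoq stood at 155%, the endothelial gene Pecam1 at 4.90% and Ccr2 at 0.209%. These ratios join tables normalised separately.

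**Figure D4:**
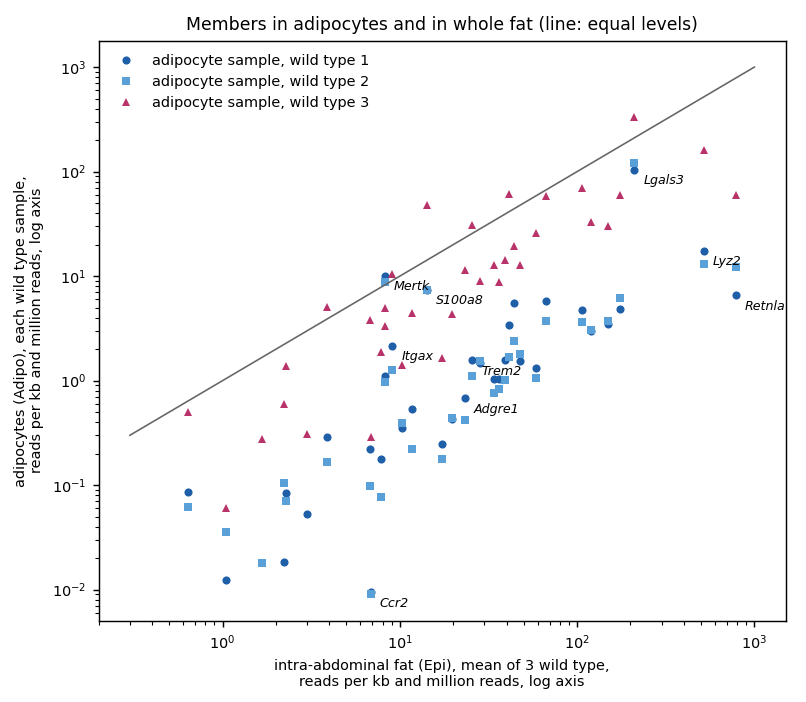
RPKM of each member in Epi whole fat (x, mean of 3 wild type samples, log axis) and in each wild type adipocyte sample (y, log axis), with the line of equal levels; 2 values of 0 (Vsig4 in wild type 1, S100a9 in wild type 2) are not drawn. In wild type 1 and 2 most members lie far below the line and Mertk close to it, while wild type 3 is higher for most members but lower for Mertk.

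Interaction terms compared the KO effect between the intra-abdominal fat tables, and 0 members and 0% of the genes passed in any of 3 contrasts. At an unadjusted p under 0.05 there were 12 of 35 members for HFD minus CD, against 17.4% of the genes, 7 of 35 for Epi minus HFD, against 17.1%, and 3 of 36 for Epi minus CD, against 8.34%. For HFD minus CD 28 of 35 members were positive (median 0.72, against -0.18 over all genes), with Adgre1 at 1.35 ± 0.42 (adjusted p = 0.184). For Epi minus HFD 7 of 35 were positive (median -0.55, against 0.08), with S100a8 at -2.16 ± 0.71 (adjusted p = 0.183). The contrasts share samples. Diet or its length and normalisation differ between the tables, and age differs between HFD (11 weeks) and both CD and Epi (19 weeks). Within a contrast, the factors that differ cannot be told apart.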

How the data were processed

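The members, gene lists and tests were chosen with earlier results of these data known. RNA-seq libraries (TruSeq stranded mRNA, per the labels' protocols) are 99 of the series' 100 samples, 1 to 4 libraries per replicate, averaged here. The deposited signal per transcript was made by the authors as reads divided by a size factor of the library. Nearly all values were whole multiples of 1 read (tolerance 0.01) in every library used. Whole read counts were taken from 96 libraries and not from the other 3, which belong to HFD KO 2, HFD WT 4 and BA WT 4. The edgeR, DESeq2 and RPKM values of these samples thus rest on 3 of their 4 libraries. Per the submitters' processing notes, which give no roles, the genome build was GRCm38.p4 and the tools were STAR 2.4.0k, DESeq 1.8.3, HTSeq 0.5.3, bcl2fastq 2.17 and SAMtools. How reads shared between genes were handled is not stated. In Adipo, 1 column matched no sample and was not used, and another KO sample was not analysed here.

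Transcripts were mapped to genes by GENCODE M21 (GRCm38), with 1 transcript kept per gene; 698 of 97669 had no gene (0.321% of the values). Genes with a table mean of at least 10 were tested in each table alone with limma 3.58.1 (R 4.3.3, trend and robust moderation) on log2(value + 1), which understates changes of low genes, with Benjamini-Hochberg adjustment at 0.05. The edgeR 4.0.16 and DESeq2 1.42.0 tests on recovered counts, other scalings, filters and pseudocounts, a replicate block and each replicate left out were alternatives; leaving out CD KO 1 and 2, or Epi KO 2 and 3, was added after seeing the data. Values by sample are given for every member called, the 3 members of smallest p in each table, a list of 15 (Adgre1, Cd68, Csf1r, Mertk, Mrc1, Cd163, Trem2, Gpnmb, Spp1, Itgax, C1qa, Tyrobp, Ccr2, S100a8 and Retnla) and called genes of the context lists; Timd4 in HFD, Clec10a, Itgam, Fcer1g, Arg1, Lgals3 in Epi and BA, Csf1, Gas6, Pros1, Cd4, Tpsb2, Cd8a, Mmp9, Elane, Csf3r, Ly6g and Retnlg were chosen after their values were seen. Cd9 in Epi and Adipoq and Fabp4 in CD were also chosen after their values were seen. Scripts were tested on simulated data. There limma called 1 of 100 changes of 2-fold in CD, 9 in Epi, 11 in Adipo, 58 in BA and 75 in HFD. A lack of calls in CD, Epi or Adipo thus does not show that changes of this size were absent. Of 100 changes of 4-fold it called 25 in CD, 35 in Epi, 64 in Adipo, 96 in BA and 83 in HFD.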

Additional observations from a re-analysis of the deposited data

Results flagged for a closer look

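In groups of 4 samples, 9 of 132 member groups held 1 sample set apart from the other 3 by more of the range than Dixon's 95% critical value allows, where chance gives about 1 in 20, or 6.6. In HFD KO 1, Lyz2 read 8595 (other KO samples 6352 to 6530), Timd4 128.4 (62.01 to 69.87) and Vsig4, a complement receptor of resident macrophages, 61.34 (16.92 to 22.8), all above the other 3. KO 1 also had the highest B cell list of the HFD samples (5.83, against at most 3.76).

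In HFD KO 2, Gpnmb read 395.2 (153.4 to 170.1) and Tyrobp 702 (617.3 to 625.7), above the other 3, and Cd9, a tetraspanin of lipid-associated macrophages, 380.6 (594.6 to 620.3), below them. Among HFD WT samples, Spp1 read 113 in WT 1 (1.833 to 8.931) and Arg1 104.4 in WT 2 (6.789 to 21.59). In BA, Itgax read 17.92 in WT 4 (28.35 to 30.03).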

How the results depend on the processing

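Over all alternatives, 1646 values of named members and gene groups were marked the same. For a member this meant the same direction and side of the threshold. For a group median it meant a move smaller than the mean SD within a label, so such a median can still change sign. Of the other values, 93 of named members changed sign, 31 passed the threshold only in the alternative and 12 only in the main fit. The remaining 4 were group medians that moved further. Members called in HFD numbered 0 with TMM scaling, no filter, no moderation, the replicate block or edgeR and 6 with DESeq2; leaving out single replicates gave 0 to 8 members and 126 to 1178 genes. Genes called numbered 272 with the replicate block and 1474 with DESeq2. In CD, DESeq2 called 1 member and 949 genes, the fit without moderation 1 gene, and single replicates left out gave 0 to 648 genes (648 without KO 3). In Epi, DESeq2 called 2 members and 536 genes, and single replicates left out gave 0 to 22 genes. In Adipo, genes called numbered 391 with no filter, 0 without moderation, 164 with edgeR and 1800 with DESeq2 (2 members); the replicate block, which keeps 2 pairs and drops WT 3, called 15 members and 1468 genes, and single replicates left out gave 0 to 6 members and 3 to 718 genes. In BA, genes called numbered 2 with no filter, 2 without moderation, 7 with all transcripts summed and 270 with DESeq2, and 0 to 9 with a replicate left out. Deviations of same-numbered samples correlated from -0.521 to 0.527, positive for some pairs (0.527 and 0.505 in CD) but not for every pair of any table, so the numbers were not taken as pairs.

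Directions turned, mostly for differences near 0, and the cause was not tested. With 1 replicate left out the log2 difference ran, in CD, from -0.10 to 0.43 for Mertk, -0.38 to 0.05 for Mrc1, -0.04 to 0.75 for Lgals3, -0.24 to 0.41 for Ccr2, -0.45 to 0.12 for S100a8 and -0.39 to 1.45 for S100a9. In HFD it ran from -0.16 to 0.03 for C1qa, -0.16 to 0.29 for Cd163, -0.12 to 0.99 for Gpnmb, -0.68 to 0.24 for Spp1 and -0.01 to 0.37 for Ccr2. In Epi it ran from -0.67 to 0.08 for Adgre1, -0.74 to 0.25 for Cd68, -0.36 to 0.10 for Csf1r, -0.12 to 0.06 for Mertk, -0.11 to 0.25 for C1qa, -0.59 to 0.32 for Tyrobp, -1.05 to 0.78 for Trem2, -1.56 to 0.91 for Gpnmb and -0.32 to 2.63 for Spp1. In Adipo it ran from -0.13 to 2.22 for Adgre1, -1.12 to 0.94 for Cd68, -0.11 to 0.46 for Mertk, -1.12 to 1.26 for Tyrobp, -0.44 to 1.10 for Retnla, -1.69 to 0.88 for Trem2, -1.89 to 0.67 for Gpnmb and -1.20 to 1.36 for Spp1. In BA it ran from -0.08 to 0.23 for Mrc1, -0.002 to 0.43 for Cd163 and -0.17 to 0.21 for Retnla.

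Without CD KO 1 and 2, the samples with epididymis genes, Mrc1 was at 0.06, Lgals3 at -0.11, Itgax at 0.33 and S100a8 at 0.09. Without Epi KO 2 and 3, Adgre1 was at 0.10, Cd68 at 0.42, Tyrobp at 0.46, Cd163 at -0.13, Trem2 at 1.48, Gpnmb at 2.04 and Itgax at 0.46, with KO 1 alone assumed to vary like the WT samples. With edgeR and DESeq2, CD S100a9 was at -0.07 and -0.08, HFD Spp1 at -1.35 and -1.33, Epi Mertk at 0.01 in both, Adipo Adgre1 at -0.34 and -0.35 and Adipo Retnla at -0.23 and -0.25. TMM scaling gave 0.02 for HFD C1qa, 0.01 for Epi Mertk and -0.01 for BA Retnla, a pseudocount of 5 gave -0.17 for HFD Spp1, and summed transcripts gave -0.01 for HFD Cd163 and 0.04 for Epi Mertk. Without HFD WT 1 and KO 1, C1qa was at 0.08. With the replicate block in Adipo, Cd68 was at 0.94, Mertk at -0.11, Tyrobp at 1.26, Trem2 at 0.88, Gpnmb at 0.67 and Spp1 at 1.36.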
